A study of Mus musculus with 23 samples.

Results

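The 10 genes described here are a set chosen by name: the cadherins Cdh1, Cdh2, Cdh3 and Cdh11, the epithelial adhesion gene Epcam, the intermediate filament gene Vim, and the transcription factor genes Snai1, Snai2, Zeb1 and Zeb2. They were found by their Ensembl identifiers among the 54347 genes of the deposited count table, and all 10 passed the filter on low counts in every fit. Expression was measured by RNA sequencing of cells dissected from the labial cervical loop, the fold of epithelium that holds the stem cells of the mouse incisor (here the lower one), a tooth that never stops growing. The tissue came from Sox2-GFP reporter mice at postnatal day 2, was taken apart with collagenase and neutral protease, and its cells were sorted on GFP into a Sox2-negative population and a Sox2-positive one, named dental epithelial stem cells in the labels. Smart-seq2, a full-length cDNA method, and Tn5 tagmentation gave the libraries. All groups share the reporter line, the age and the dissected region, and no further allele or treatment is named. The reporter's GFP follows the endogenous Sox2 promoter, so any cell with an active promoter and enough GFP could enter the positive gate.

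The 23 libraries fall into 4 groups. Batch A has 6 Sox2-negative and 6 Sox2-positive libraries, and batch B has 4 Sox2-negative and 7 Sox2-positive libraries. The batches are separate days with different mice, so day and mice cannot be told apart. The labels do not say whether the libraries of a group came from separate mice, so p-values measure only the spread between libraries, which may be technical. Total estimated counts ran from 2305778 to 9541443 per library, and 3 counts, taken as the lowest level that a library can show, correspond to 0.314 to 1.30 CPM (counts of a library relative to its total after TMM scaling). Sox2 had between 2.56 and 20.5 CPM in the 13 Sox2-positive libraries and at most 1.16 CPM in the 10 Sox2-negative ones. Batch B Sox2-positive libraries numbered 1 and 2 stood apart from their group: summed epithelial markers were 2513 and 2400.5 CPM in them and 3707 to 4041 CPM in the other 5. Sox2-negative libraries 1 and 2 of batch B did not stand apart on this sum, with 302 and 322 CPM against 292 and 339 CPM in libraries 3 and 4.

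Cadherins are calcium-dependent adhesion proteins that join neighbouring cells, with the same type usually binding on both sides, and that hold the actin skeleton through catenins. Epithelia typically carry E-cadherin (Cdh1) and often P-cadherin (Cdh3), whereas mesenchymal and neural cells carry N-cadherin (Cdh2) and cadherin 11. In an epithelial-mesenchymal transition, zinc finger repressors of the Snail and Zeb families lower Cdh1 and Epcam by binding E-box sequences in regulatory DNA, while vimentin and N-cadherin rise. Neural crest cells, which supply the mesenchyme of the tooth, make such a transition when they leave the neural tube.

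The marker lists of cell types were read next to the labels. Epithelial markers (Krt5, Krt14, Krt8, Krt18 and Trp63) summed to 2462 to 2845 CPM in batch A Sox2-positive libraries and to 2400.5 to 4041 CPM in batch B ones, against 117 to 198 and 292 to 339 CPM in the Sox2-negative libraries. By edgeR, all 5 rose in the Sox2-positive population. Mesenchymal markers (Pdgfra, Prrx1, Twist1, Lum, Dcn and Col1a1) summed to 6656 to 7989 and 6705 to 8214 CPM in the Sox2-negative libraries of batches A and B. In the Sox2-positive libraries they summed to 349 to 588 CPM in batch A and 88.1 to 107 CPM in batch B, with Twist1 at 0 in all 13. The Sox2-negative libraries also held leukocyte markers (1098 to 1310 CPM in batch A, 221 to 256 CPM in batch B) and endothelial markers (843 to 1244 and 223 to 367 CPM), so they held RNA of several cell types. In bulk libraries, fewer cells of a type and less RNA per cell cannot be told apart.

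E-box motifs of the kind bound by Snail and Zeb proteins were searched in the promoters that RefSeq (GRCm38.p6) gives for the set, because the set holds both these repressors and genes they are known to act on. Epcam, Vim, Snai1 and Zeb2 were searched, with 7 windows of 250 bases before a start site in all. Cdh1, Cdh3, Cdh11 and Snai2 had no entry, and Cdh2 and Zeb1 were left out of the search. The motif CAGGTG, read as CACCTG on the other strand, occurred in 17.2% of 32851 promoters of that length, and the looser CANNTG, which contains it, in 66.2%. The Epcam window had 2 matches, the Snai1 window 1, and the windows of Vim and Zeb2 none. The windows with a match are printed 5′ to 3′ with the matches in capitals, Epcam at chr17:87635729-87635978 (plus strand) and Snai1 at chr2:167537945-167538194 (plus strand).
Epcam: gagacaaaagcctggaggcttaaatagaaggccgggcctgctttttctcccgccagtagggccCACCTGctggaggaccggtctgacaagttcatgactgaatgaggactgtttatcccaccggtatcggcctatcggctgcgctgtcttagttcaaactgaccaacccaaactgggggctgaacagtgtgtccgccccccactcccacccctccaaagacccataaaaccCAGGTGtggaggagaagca
Snai1: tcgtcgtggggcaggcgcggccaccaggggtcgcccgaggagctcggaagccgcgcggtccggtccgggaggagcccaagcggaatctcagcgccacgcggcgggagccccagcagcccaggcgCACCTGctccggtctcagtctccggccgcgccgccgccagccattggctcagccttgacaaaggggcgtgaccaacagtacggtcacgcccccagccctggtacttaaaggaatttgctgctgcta
In the Epcam window the first bases of the matches lie 187 and 19 bases before the start, and in the Snai1 window 126 bases before it. A match is a run of letters, and binding was not measured.

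All 10 genes differed between the sorted populations: Cdh1, Cdh3, Epcam and Snai2 were higher in Sox2-positive cells, and Cdh2, Cdh11, Vim, Snai1, Zeb1 and Zeb2 were lower. The 4 higher genes include 3 epithelial adhesion genes and 1 gene of the Snail family, and the 6 lower ones include the other Snail gene and both Zeb genes. These calls come from edgeR's quasi-likelihood test with Benjamini-Hochberg adjustment over all genes tested (adjusted p under 0.05, here called the edgeR adjusted p), with batch as a covariate. The same test called 57.8% of the 17190 genes tested (26.6% higher, 31.3% lower), so a call alone sets no gene apart. Within batch A all 10 were called, where 43.4% of 14296 genes were called (19.3% higher, 24.2% lower). Within batch B all 10 were called too, where 54.7% of 15765 genes were (27.1% higher, 27.6% lower). The ranges of the 2 populations did not overlap for any of the 10 genes in either batch, with the same 4 higher and 6 lower. This held for 25.4% of all genes tested in batch A (11.7% higher, 13.7% lower) and 36.6% in batch B (17.2% higher, 19.5% lower). The median log2 fold change of the 10 genes was -2.46, and that of all genes was -0.07. Every direction and call of these population differences was the same under each alternative that was tried.

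**Figure D1:**
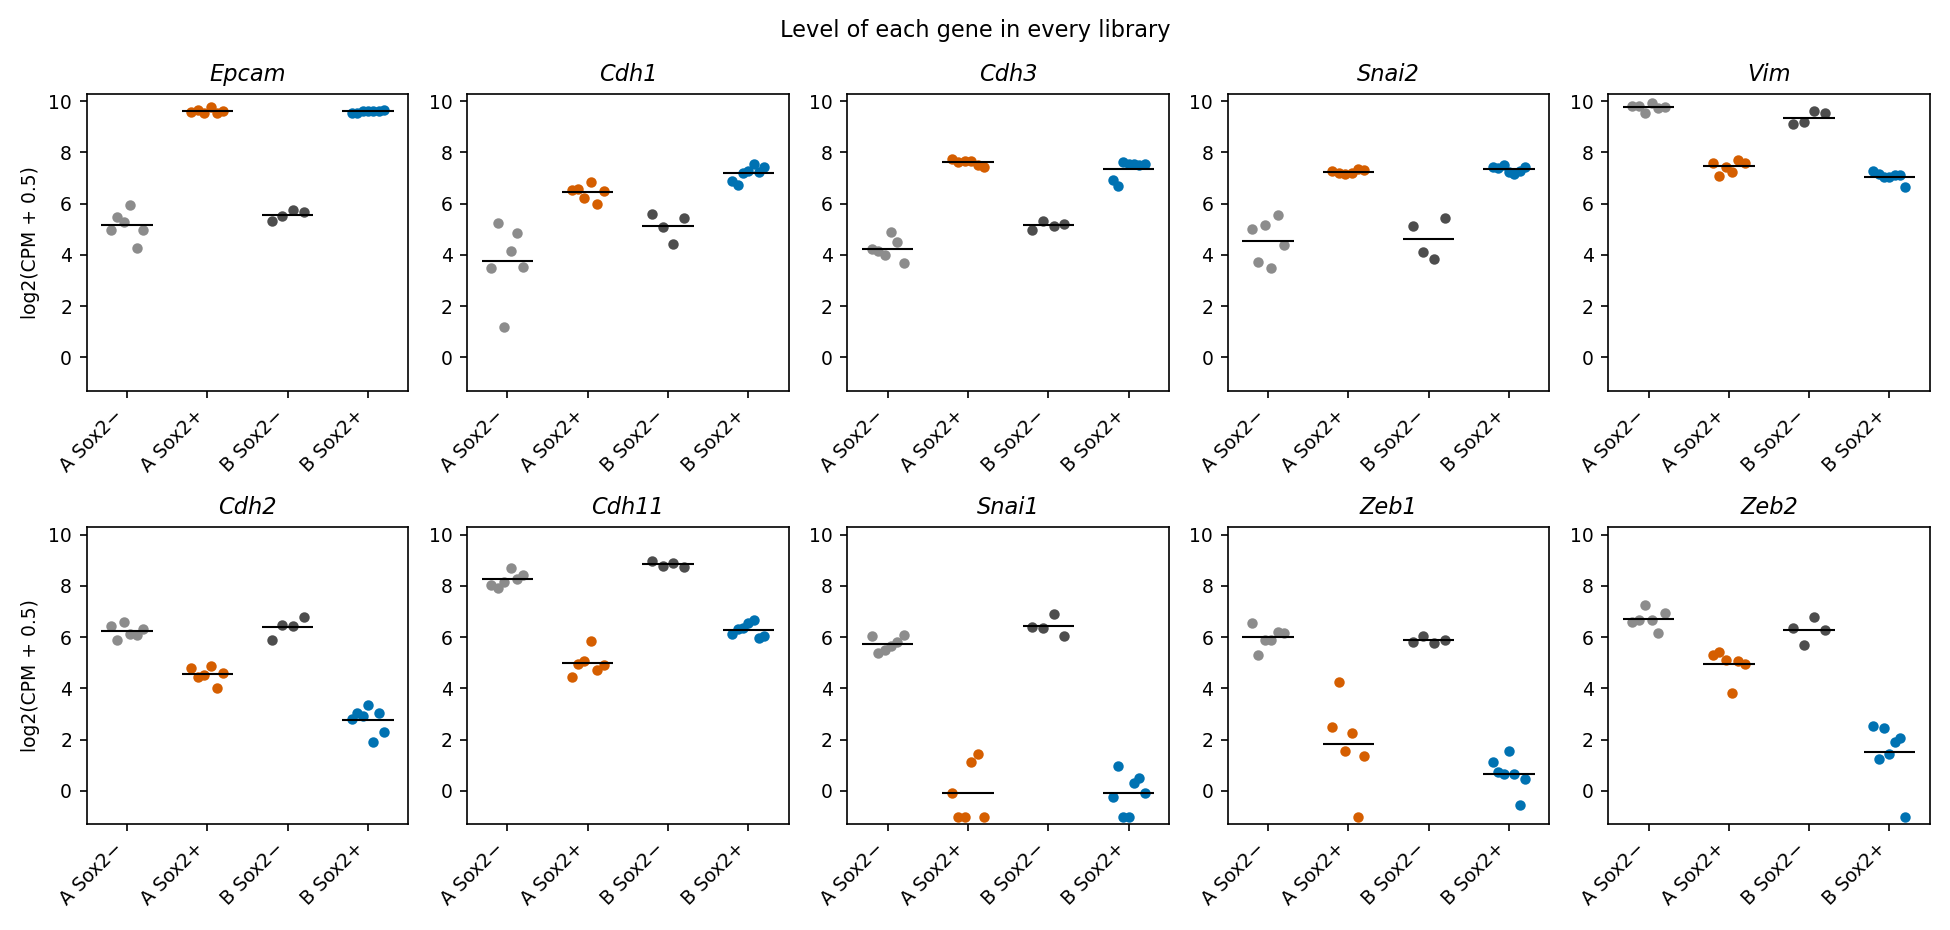
Each point is the level of a gene in 1 library, as log2(CPM + 0.5), in the 4 groups (batch A or B, Sox2-negative in grey, Sox2-positive in orange and blue), and horizontal lines are group means. Epcam, Cdh1, Cdh3 and Snai2 sit higher in the Sox2-positive groups, the other 6 genes sit lower, and Snai1 lies near the bottom of the axis in all 13 Sox2-positive libraries.

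Epcam (ENSMUSG00000045394.9, chr17:87635979-87651129, plus strand, GRCm38) codes for a homotypic adhesion protein of epithelial membranes. Its level in batch A Sox2-positive libraries was 749 CPM at the lowest, 770 at the median and 873 at the highest. The Sox2-positive libraries of batch B had 735, 787 and 797 CPM. Sox2-negative libraries had 18.6, 34.7 and 61.0 CPM in batch A, and 40.1, 45.8, 54.0 and 50.04 CPM in the 4 of batch B. The populations stood far apart, and within the Sox2-positive ones the level varied little between libraries, with coefficients of variation of 5.95% (batch A) and 3.11% (batch B). Epcam rose by 4.22 on the log2 scale over both batches (SE 0.14, edgeR adjusted p 3.227e-19), the most of the set. The Sox2-positive groups of the batches differed by -0.02 on the log2 scale (SE 0.15, edgeR adjusted p 0.9788).

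Cdh1 (ENSMUSG00000000303.12, chr8:106603351-106670246, plus strand) codes for E-cadherin, the main cadherin of epithelial junctions. Batch A Sox2-positive libraries had 62.9, 91.1 and 113 CPM at the lowest, median and highest, and batch B ones 105, 152 and 185 CPM. Sox2-negative libraries of batch A ranged from 1.81 to 37.0 CPM with a median of 14.3, and those of batch B had 48.3, 33.8, 20.7 and 42.5 CPM. The Sox2-negative libraries of batch A were the most uneven of the 4 groups, with a coefficient of variation of 72.9%, and replicate 3 had the lowest value. Over both batches Cdh1 rose by 2.16 on the log2 scale (SE 0.27, edgeR adjusted p 1.607e-07).

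Cdh3 (ENSMUSG00000061048.8, chr8:106510891-106557297, plus strand) codes for P-cadherin, a cadherin of basal epithelial layers, and lies next to Cdh1 on the same chromosome. Its level was 173, 199.7 and 213 CPM (lowest, median, highest) in batch A Sox2-positive libraries and 102, 185 and 200 CPM in batch B ones. Sox2-negative libraries had 12.4, 17.9 and 29.4 CPM in batch A and 30.7, 39.4, 34.1 and 36.3 CPM in batch B. No library of one population reached the other. Batch B Sox2-positive replicates 1 and 2, with 122 and 102 CPM, lay under the other 5, which had 184 to 200 CPM. Cdh3 rose by 2.81 on the log2 scale (SE 0.18, edgeR adjusted p 5.758e-13).

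Cdh2 (ENSMUSG00000024304.14, chr18:16588877-16809246, minus strand) codes for N-cadherin, which neural, glial and many mesenchymal cells use. Sox2-negative libraries had 59.4, 73.8 and 95.2 CPM (lowest, median, highest) in batch A and 58.5, 89.7, 85.2 and 109.6 CPM in batch B. In the Sox2-positive libraries it had 15.7, 22.985 and 29.1 CPM in batch A and 3.27, 7.01 and 9.60 CPM in batch B. Cdh2 was thus present in every Sox2-positive library, with at least 9 counts, and the Sox2-positive ranges of the batches did not overlap. Between the populations Cdh2 had a log2 difference of -2.62 (SE 0.25, edgeR adjusted p 1.694e-09).

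Cdh11 (ENSMUSG00000031673.6, chr8:102632095-102785642, minus strand) codes for a cadherin of mesenchyme and bone-forming cells. Sox2-negative libraries had 244, 295 and 417 CPM (lowest, median, highest) in batch A and 501, 438, 475 and 428 CPM in batch B. Levels in Sox2-positive libraries were 21.0, 29.8 and 56.5 CPM in batch A and 62.6, 78.3 and 101 CPM in batch B. The libraries of batch B lay over those of batch A in both populations, without overlap. Sox2-positive minus Sox2-negative, the log2 difference of Cdh11 was -2.92 (SE 0.15, edgeR adjusted p 8.083e-15).

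Vim (ENSMUSG00000026728.9, chr2:13573927-13582826, plus strand) codes for vimentin, an intermediate filament of mesenchymal cells, leukocytes, endothelium and glia. It had 750, 877 and 966 CPM (lowest, median, highest) in batch A Sox2-negative libraries, and 549.8, 579, 788 and 736 CPM in the 4 of batch B. Sox2-positive libraries held 136, 184 and 210.45 CPM in batch A and 99.4, 137 and 155 CPM in batch B. Vim therefore stayed far over the lowest visible level in every Sox2-positive library, with at least 227 counts. Its log2 fold change of -2.30 (SE 0.09, edgeR adjusted p 5.667e-18) was the smallest in size among the 6 lower genes over both batches.

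**Figure D2:**
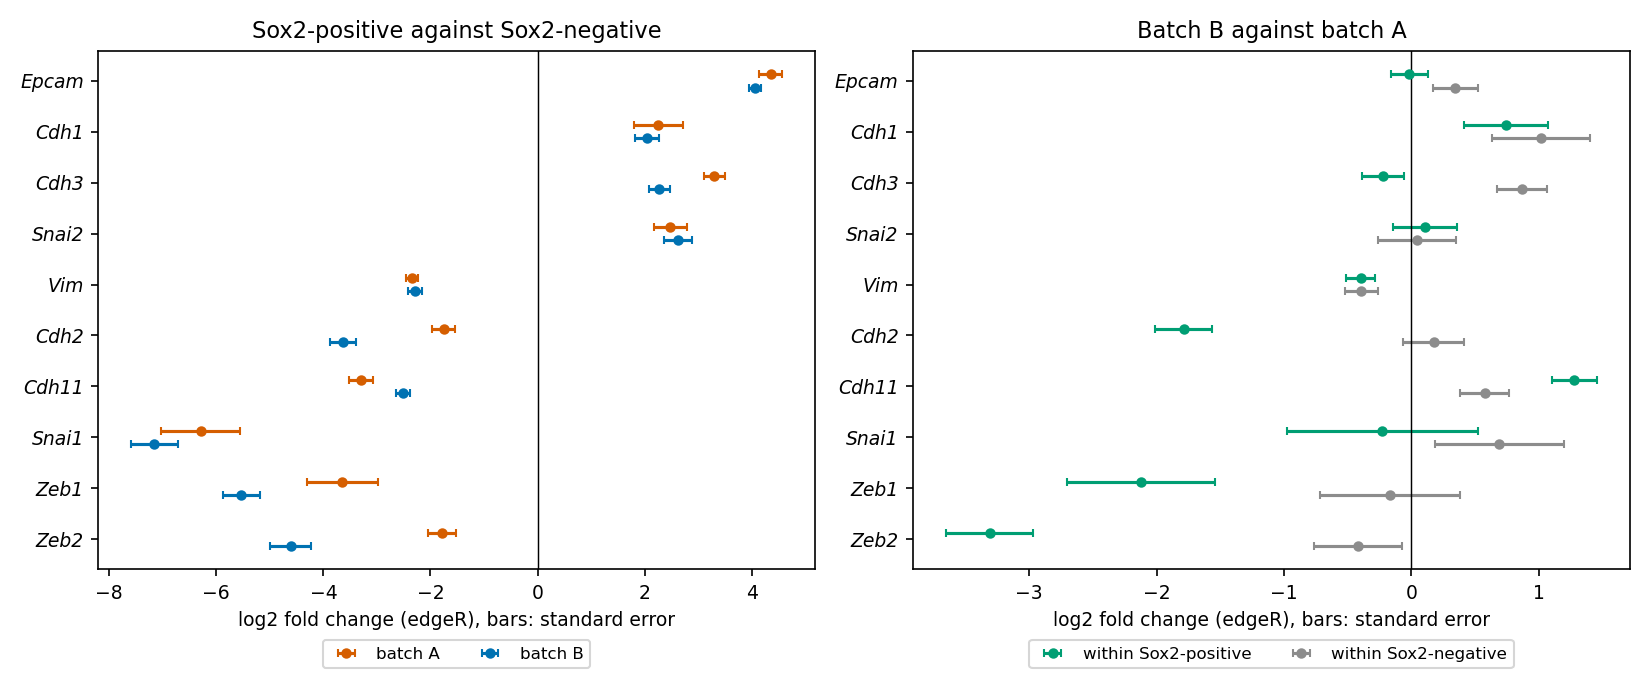
Left, the log2 fold change of Sox2-positive against Sox2-negative cells for each gene in batch A (orange) and batch B (blue). Right, that of batch B against batch A within Sox2-positive (green) and Sox2-negative cells (grey), with standard errors from edgeR as bars. On the left, 4 genes lie over 0 and 6 under it in both batches, and on the right Cdh2, Zeb1 and Zeb2 lie to the left and Cdh11 to the right within Sox2-positive cells.

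The 2 Snail genes moved in opposite directions. Snai1 (ENSMUSG00000042821.7, chr2:167538195-167542814, plus strand) codes for a repressor of Cdh1 that starts many epithelial-mesenchymal transitions. Sox2-negative libraries had 41.3, 53.0 and 68.3 CPM (lowest, median, highest) in batch A and 84.6, 81.4, 118 and 65.8 CPM in batch B. Its level in Sox2-positive libraries was 0 to 2.25 CPM in batch A (median 0.224) and 0 to 1.44 CPM in batch B (median 0.438). Counts there were at most 11, with 3 of 6 libraries at 0 in batch A and 2 of 7 in batch B, so Snai1 was at the edge of what this depth can show. For Snai1 the fitted log2 difference was -6.72 (SE 0.46, edgeR adjusted p 1.994e-12), the most negative of the set.

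Snai2 (ENSMUSG00000022676.7, chr16:14705852-14709385, plus strand) codes for Slug, a relative of Snail that also acts in basal epithelial progenitors and in neural crest. It had 143, 151 and 164 CPM (lowest, median, highest) in batch A Sox2-positive libraries and 144, 169.7 and 183 CPM in batch B ones. Sox2-negative libraries had 10.9, 26.3 and 46.7 CPM in batch A and 34.4, 16.8, 13.8 and 43.3 CPM in batch B. The Sox2-positive libraries of both batches lay in 1 narrow band and the Sox2-negative ones were uneven, with coefficients of variation of 5.52% and 8.31% against 53.3% and 52.1%. Snai2 rose by 2.56 on the log2 scale (SE 0.21, edgeR adjusted p 1.013e-10).

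Zeb1 (ENSMUSG00000024238.15, chr18:5591860-5775467, plus strand) and Zeb2 (ENSMUSG00000026872.18, chr2:44983632-45117395, minus strand) code for repressors with zinc fingers at both ends, and Zeb2 also works in neural crest and glial cells. Zeb1 had 39.1, 65.5 and 93.2 CPM (lowest, median, highest) in batch A Sox2-negative libraries and 56.2, 66.2, 53.9 and 58.4 CPM in batch B ones. In Sox2-positive libraries it had 0, 3.38 and 18.3 CPM in batch A, and 0.184, 1.09 and 2.46 CPM in batch B, where its counts were 1 to 10. Sox2-positive replicate 2 of batch A, with 18.3 CPM, was well over the next library at 5.15 CPM, and still under every Sox2-negative one. Over both batches the log2 difference of Zeb1 came to -4.44 (SE 0.45, edgeR adjusted p 4.531e-09).

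Zeb2 had 71.996, 101 and 153 CPM (lowest, median, highest) in batch A Sox2-negative libraries and 81.5, 51.7, 111 and 77.3 CPM in batch B ones. Its level in Sox2-positive libraries was 13.6, 33.5 and 41.9 CPM in batch A and 0, 3.27 and 5.25 CPM in batch B. The batch A Sox2-positive libraries thus lay between the Sox2-negative libraries and the Sox2-positive ones of batch B, without overlap on either side. Zeb2 differed by -3.04 on the log2 scale (SE 0.38, edgeR adjusted p 1.607e-07) over both batches, with -1.78 in batch A alone and -4.61 in batch B alone.

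Beside the 6 lower genes, markers of several cell types were also called lower in Sox2-positive libraries, where 31.3% of all genes were. They were 6 of 6 mesenchymal, 6 of 6 leukocyte, 6 of 6 endothelial and 4 of 4 erythroid markers. Other lists did not fall: 5 of 5 glial and neural crest and 3 of 4 skeletal muscle markers were called higher, where 26.6% of all genes were. Of the 3 pericyte and smooth muscle markers tested, 1 was called higher and 2 lower. Of the 4 ameloblast markers tested, Amelx, Ambn and Enam were called lower and Odam higher. The ameloblast list summed to 715 to 901 CPM in Sox2-negative libraries of batch A and 574 to 698 CPM in those of batch B. Leukocyte markers summed to at most 13.8 CPM in Sox2-positive libraries of batch A, with Cd52 at 0, and to at most 3.31 CPM in batch B, with Cd52, Tyrobp and Csf1r at 0. Endothelial markers there summed to 19.8 to 35.8 CPM in batch A and 17.5 to 34.9 CPM in batch B, with none at 0 throughout, and Cdh5 and Emcn had at most 3 counts in each library. The part of these cell types in the levels of the 6 genes was not tested.

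Levels can be compared between genes once divided by transcript length (CPM per kilobase of the principal transcript). On that scale Vim led in Sox2-negative libraries, at 397 ± 32.2 CPM per kilobase (SD, n = 6) in batch A and 302 ± 53.3 (n = 4) in batch B, followed by Cdh11 at 54.8 ± 11.4 and 81.6 ± 5.98, and by Snai1 at 33.5 ± 6.74 and 54.0 ± 13.6. Next in both batches came Epcam, Cdh2 and Snai2, at 13.03 to 23.3 CPM per kilobase on average, then Zeb1 and Zeb2 at 8.81 to 11.8, and Cdh1 and Cdh3 were the lowest pair, at 4.01 ± 2.93 and 4.38 ± 1.35 in batch A, and in the other batch at 8.20 ± 2.70 and 8.01 ± 0.841. In batch A the neighbours from Epcam down to Zeb1, and Cdh3 and Cdh1, differed by less than the larger SD of each pair, and in batch B those from Cdh2 down to Cdh3 did.

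In Sox2-positive libraries Epcam led, at 385 ± 22.9 CPM per kilobase (SD, n = 6) in batch A and 381 ± 11.8 (n = 7) in batch B. Vim and Snai2 came next, at 80.5 ± 12.9 and 75.1 ± 4.15 in batch A, a difference smaller than the SD of Vim, and at 61.0 ± 7.74 and 80.9 ± 6.72 in batch B, where Snai2 was ahead. Cdh3 followed at 44.5 ± 3.51 and 38.1 ± 8.75, and Cdh1 at 19.8 ± 3.94 and 33.2 ± 6.35, a gap beyond the SD in batch A and within it in batch B. Cdh11 and Cdh2 had 5.78 ± 2.20 and 4.81 ± 0.980 in batch A, within the SD of each other, and 14.005 ± 2.58 and 1.36 ± 0.444 in batch B. Zeb2 had 3.52 ± 1.09 in batch A and 0.333 ± 0.202 in batch B, and Zeb1 and Snai1 averaged under 1 CPM per kilobase in both.

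The cadherin makeup of the libraries shows the same change as shares of the 4 cadherins, each per kilobase. In Sox2-negative libraries Cdh11 made up 68.99% ± 4.52 (SD, n = 6) in batch A and 70.6% ± 4.44 (n = 4) in batch B, and Cdh2 20.2% ± 4.75 and 15.4% ± 3.86. In Sox2-positive libraries Cdh3 was the largest share, 59.7% ± 4.51 in batch A (n = 6) and 43.6% ± 3.95 in batch B (n = 7), and Cdh1 followed with 26.3% ± 3.01 and 38.3% ± 2.16. Cdh11 held 7.62% ± 2.14 and 16.5% ± 3.49 there, and Cdh2 6.38% ± 0.775 and 1.65% ± 0.659. Cdh3 and Cdh1 thus held most of the summed level of these 4 genes in Sox2-positive libraries of both batches, and Cdh11 most of it in Sox2-negative ones. The shares leave out other cadherins with high levels: Cdh13 had 41.5 ± 6.34 CPM per kilobase (SD, n = 6) and 60.3 ± 11.2 (n = 7) in Sox2-positive libraries of batches A and B, and Cdh5, the cadherin of endothelium, 45.5 ± 10.4 (n = 6) and 10.8 ± 2.53 (n = 4) in Sox2-negative ones.

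**Figure D3:**
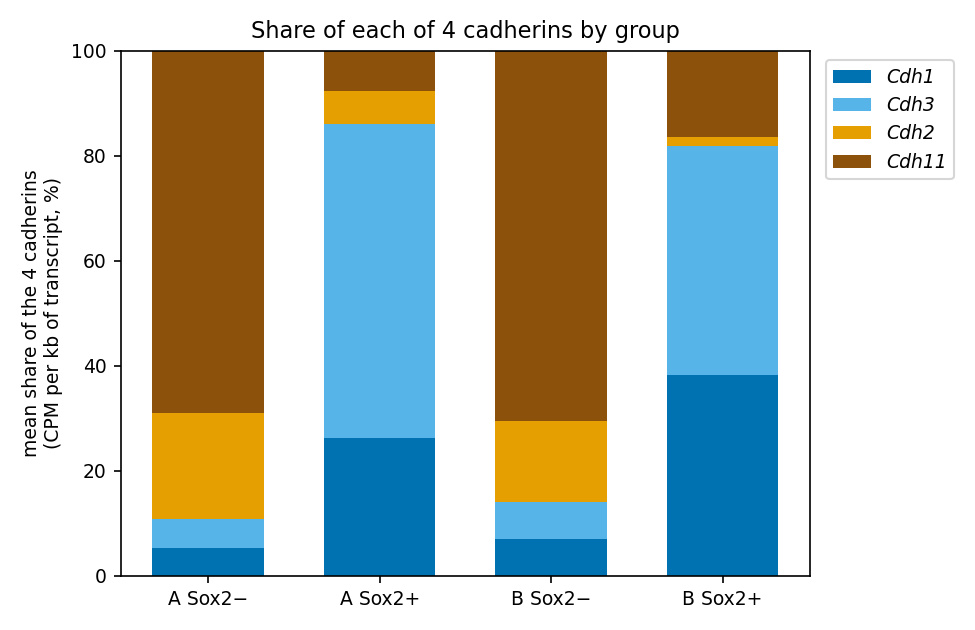
Bars give the mean share of Cdh1, Cdh3, Cdh2 and Cdh11 among these 4 cadherins (CPM per kilobase of transcript, percent) in the 4 groups. Cdh11 takes 68.99% and 70.6% in the Sox2-negative groups, Cdh3 takes 59.7% and 43.6% in the Sox2-positive groups of batches A and B, and Cdh2 falls to 1.65% in batch B Sox2-positive libraries.

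Ratios of 2 genes within a library do not depend on how libraries are scaled, and show only that the genes changed unequally. They were taken as log2 ratios of counts with 0.5 added, compared by two-sided exact permutation tests, and adjusted over 24 tests. The ratio of Epcam to Vim was -4.63 ± 0.545 (SD, n = 6) in Sox2-negative and 2.17 ± 0.300 in Sox2-positive libraries of batch A, and -3.79 ± 0.102 (n = 4) and 2.55 ± 0.230 (n = 7) in batch B. The differences of 6.79 and 6.34 each had the smallest p that the exact permutation test can give, 0.00216 and 0.00606 (adjusted p 0.00866 and 0.0142). The ratio of Cdh1 to Cdh2 rose by 4.46 in the first batch and 5.77 in the other, and that of Cdh1 to Cdh11 by 6.05 and 4.62, with the same exact permutation p-values.

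Cdh1 and Cdh3 both rose, and the difference in their ratio passed in neither batch, which does not show that they rose equally. Their ratio differed between the populations by -0.63 in batch A (exact permutation adjusted p 0.419) and -0.16 in batch B (0.595). In batch A the missing call rests on Sox2-negative replicate 3, without which the difference was -1.12 (exact permutation adjusted p 0.0132). Snai1 against Snai2 gave the widest contrast, from 1.21 ± 0.791 (SD, n = 6) to -8.79 ± 2.22 (n = 6) in batch A and from 1.81 ± 1.09 (n = 4) to -8.50 ± 1.66 (n = 7) in batch B, again at the smallest p possible. Their low end depends on the count added, since Snai1 was at 0 in 5 Sox2-positive libraries. The ratio of Zeb1 to Zeb2 differed by -2.89 in batch A (exact permutation adjusted p 0.0142), and its difference of -0.61 in batch B did not pass (0.595).

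**Figure D4:**
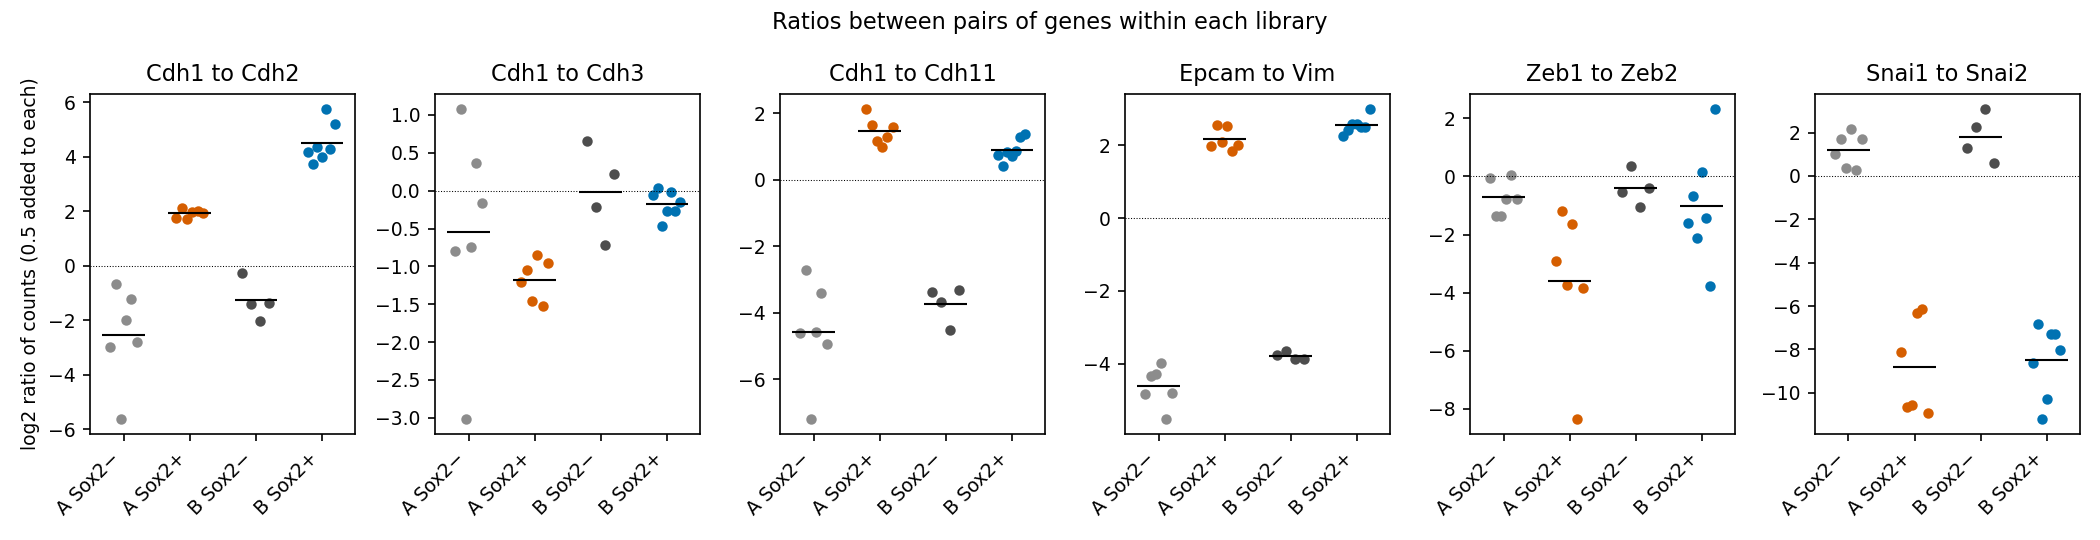
Each point is the log2 ratio of the counts of 2 genes in 1 library (0.5 added to each count), by group, with group means as lines and the dotted line at equal counts. Epcam to Vim, Cdh1 to Cdh2 and Cdh1 to Cdh11 are under 0 in every Sox2-negative library and over 0 in every Sox2-positive one, Snai1 to Snai2 is the reverse, and Cdh1 to Cdh3 overlaps between the populations.

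The batches differed in how far some of the 10 genes moved. The interaction, the log2 fold change in batch B minus that in batch A, was called for 3 of the 10 (all lower), where 6.96% of the 17190 genes were called (2.72% higher, 4.24% lower). Cdh2 fell further in batch B, with log2 differences of -3.63 against -1.75 (interaction -1.96, SE 0.32, edgeR adjusted p 0.0002237). Zeb2 fell further too, with -4.61 against -1.78 (interaction -2.90, SE 0.47, edgeR adjusted p 0.0002161). Cdh3 rose less in batch B, with 2.28 against 3.30 (interaction -1.09, SE 0.26, edgeR adjusted p 0.008347), and without batch B libraries numbered 1 and 2 this was -0.92 (edgeR adjusted p 0.06407).

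The other 7 genes had no called interaction, which does not show that their changes were alike. For Zeb1 it was -1.95 (SE 0.79, edgeR adjusted p 0.1505), and -2.19 (0.03754) without batch A Sox2-positive replicate 5, the library with Zeb1 at 0. For Cdh11 it was 0.71 (edgeR adjusted p 0.1124), and 0.95 (0.007895) without batch A Sox2-positive replicate 4, its highest library of that group. Cdh1, Epcam, Vim, Snai1 and Snai2 had values from -0.92 to 0.07, with edgeR adjusted p-values of 0.415 or more.

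Within Sox2-positive cells, batch B was lower than batch A for Cdh2 (log2 fold change -1.79, SE 0.22, edgeR adjusted p 1.992e-06), Zeb2 (-3.31, SE 0.34, 7.455e-08), Zeb1 (-2.12, SE 0.58, 0.01641) and Vim (-0.40, SE 0.11, 0.01906), and higher for Cdh11 (1.28, SE 0.18, 1.17e-05). Of all genes 10.4% were called (4.95% higher, 5.48% lower), 851 higher and 942 lower, and with scaling to total counts alone the split was 666 higher and 1213 lower, with the calls of the 10 genes as before. Ranges did not overlap for Cdh2, Zeb2 and Cdh11, which held for 8.57% of genes (3.96% higher, 4.61% lower). The Zeb1 call was lost without batch A Sox2-positive replicate 2 (-1.16, edgeR adjusted p 0.1772) and without batch B libraries 1 and 2 (-2.25, 0.07617). The Vim call was lost without any 1 of batch A Sox2-positive replicates 1, 5 and 6 (edgeR adjusted p 0.05121, 0.06855 and 0.05211) and with no filter beyond 1 count (-0.38, 0.05743). Epcam, Cdh1, Cdh3, Snai1 and Snai2 were not called, with Cdh1 at 0.74 (SE 0.33, edgeR adjusted p 0.1779) and Snai2 at 0.11.

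Markers of glia and neural crest (Sox10, Mbp, Foxd3, Cdh19 and Erbb3) moved with Cdh2, Zeb1 and Zeb2. They summed to 492 to 694 CPM in batch A Sox2-positive libraries and 29.99 to 66.6 CPM in batch B ones, with 5 of 5 called lower in batch B and none at 0 throughout either group. In Sox2-negative libraries they summed to at most 27.9 CPM. Vim, Cdh2 and Zeb2 are known to be expressed by glia, and Snai2 by neural crest cells. Snai2 averaged 152 ± 8.38 CPM (SD, n = 6) and 164 ± 13.6 CPM (n = 7) in the same groups. Of the 6 mesenchymal markers, Col1a1 (428 ± 98.7 CPM in batch A, n = 6, and 36.6 ± 11.7 in batch B, n = 7) and Prrx1 were called lower in batch B Sox2-positive libraries. The other 4 were not called (list median -0.24), among them Twist1, which was at 0 in both groups and could not differ. Of 9 mesenchymal products, a list that also holds Col1a1, 5 were called lower in the same comparison and none higher (median -1.27). Ameloblast markers summed to 294 to 345 CPM in batch A and 9.94 to 17.6 CPM in batch B. Skeletal muscle markers (Myod1, Myog, Des and Acta1) moved with Cdh11 instead, from at most 8.64 CPM in batch A to 166 to 309 CPM in batch B, with 3 of 4 called higher. Markers of pericytes and smooth muscle (Rgs5, Acta2, Myh11 and Tagln) rose from 80.8 to 113 CPM to 403 to 432 CPM, with 2 of the 3 tested called higher. Their part in the differences of the 5 genes was not tested.

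**Figure D5:**
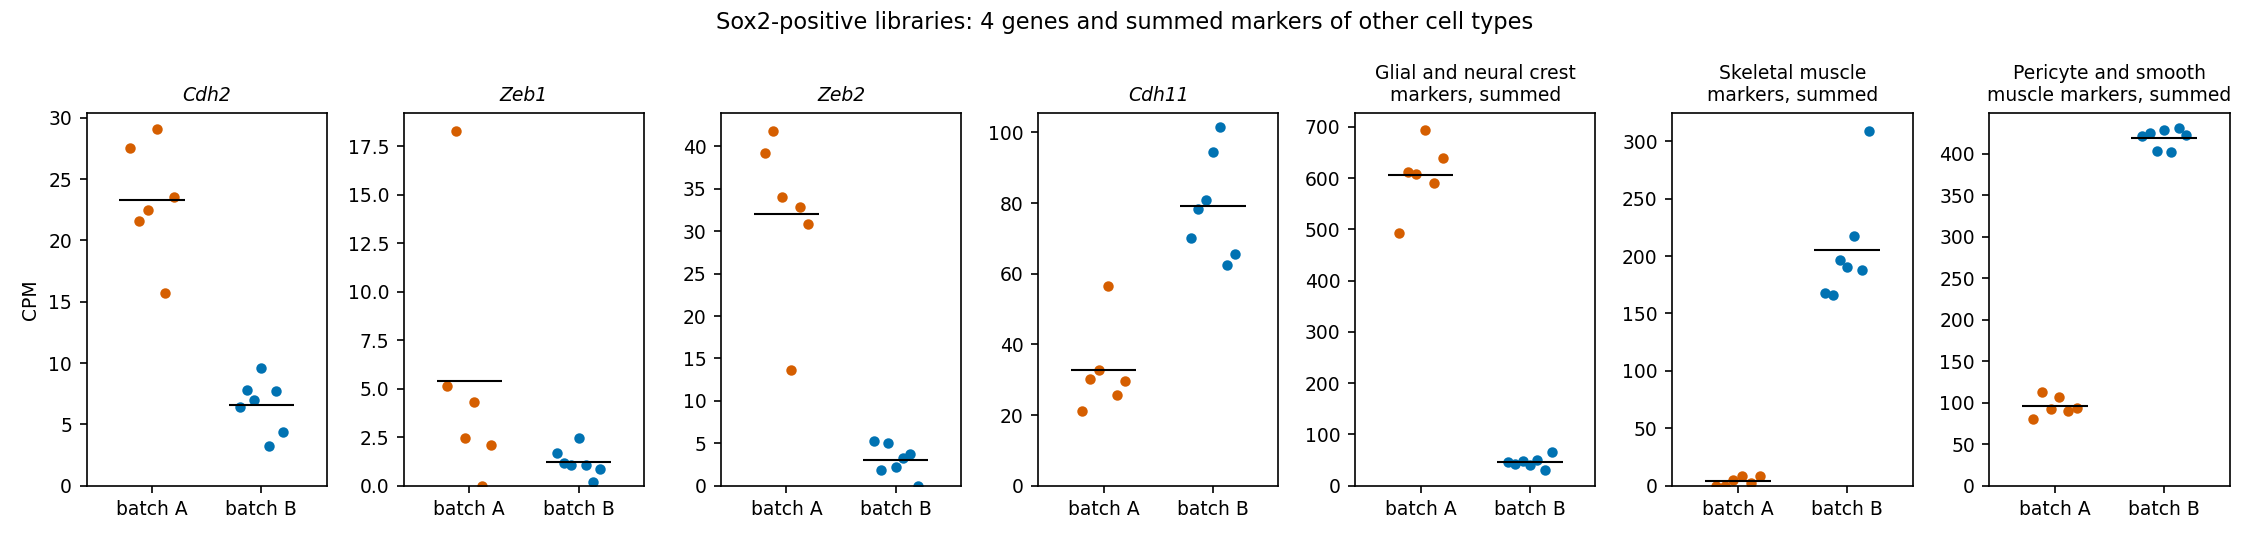
Points are Sox2-positive libraries of batch A (orange, n = 6) and batch B (blue, n = 7), in CPM on linear axes that start at 0, with group means as lines, for Cdh2, Zeb1, Zeb2 and Cdh11 and for the summed markers of 3 other cell types. Glial and neural crest markers fall from at least 492 to at most 66.6 CPM together with Cdh2 and Zeb2, and Cdh11 and both muscle lists are higher in batch B.

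Ratios gave the same view without scaling. In Sox2-positive libraries the ratio of Cdh1 to Cdh2 was 2.59 higher in batch B and that of Cdh1 to Cdh3 1.00 higher, each with the smallest exact permutation p possible, 0.00117 (adjusted p 0.00866). The ratio of Cdh1 to Cdh11 differed by -0.58 (exact permutation adjusted p 0.0323) and that of Epcam to Vim by 0.38 (0.0440), and these calls were lost in 8 and 11 of the 13 tests that left out 1 library. Cdh1 thus gained on both Cdh2 and Cdh3 in batch B Sox2-positive libraries, although its own difference between the batches did not pass the test. In Sox2-negative libraries the ratio of Epcam to Vim was 0.83 higher in batch B, at the smallest exact permutation p possible there, 0.00952 (adjusted p 0.0190). That call held in all 10 tests that left out 1 library, and no other ratio passed between the Sox2-negative groups.

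Within Sox2-negative cells, Cdh3 was called higher in batch B (0.87, SE 0.20, edgeR adjusted p 0.004592) and Vim lower (-0.39, SE 0.13, 0.04873), where 11.3% of genes were called (6.07% higher, 5.22% lower), 1043 higher and 897 lower. Scaling to total counts alone shifted the median of all genes by -0.15 and turned that split into 662 higher and 1381 lower, with both calls kept. The Vim call was lost in 8 of the 10 fits without 1 library and, without batch B libraries 1 and 2, was -0.20 (edgeR adjusted p 0.5314), and with no filter beyond 1 count it was -0.39 (0.1043). Ranges did not overlap for Cdh3 and Cdh11, both higher, which held for 8.85% of genes (4.68% higher, 4.18% lower). Cdh11 had 0.57 (SE 0.19, edgeR adjusted p 0.05402), or 0.67 (0.02593) without batch A Sox2-negative replicate 4. Cdh1 had 1.02 (edgeR adjusted p 0.0885), or 1.37 (0.0162) without replicate 2 of that group, and Epcam 0.35 (0.2258), or 0.53 (0.02186) without replicate 4. Red cell markers summed to 30421 to 33739 CPM in the batch B libraries and 556 to 733 CPM in batch A, with 3 of 4 called higher. Of the epithelial markers 3 of 5 were called higher in batch B (Krt5, Krt8 and Krt18), and 5 of 6 leukocyte and 6 of 6 endothelial markers were called lower. The part of these cells in the differences of Cdh3, Vim and the other members was not tested.

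Other genes of cell adhesion were read from lists chosen by function. Of 18 further cadherins 9 passed the filter, and 5 were called higher and 3 lower in Sox2-positive cells over both batches (median log2 fold change 2.58, or 1.40 with genes near 0 at their bound). Over all genes tested 26.6% were called higher and 31.3% lower. Cdh13 and Cdh6 were named after their values were seen. Cdh13, a cadherin held in the membrane by a lipid anchor, had 157 ± 24.0 CPM (SD, n = 6) and 228 ± 42.5 (n = 7) in Sox2-positive libraries of batches A and B against 41.7 ± 32.3 (n = 6) and 20.7 ± 16.8 (n = 4), and rose by 2.58 on the log2 scale (SE 0.40, edgeR adjusted p 3.902e-06). Per kilobase its mean was above that of Cdh1 in the Sox2-positive libraries of both batches and above that of Cdh3 in those of batch B. Cdh6 rose by 3.87 on the log2 scale (SE 0.24, edgeR adjusted p 3.104e-13), with 93.4 ± 20.6 CPM (SD, n = 6) and 83.7 ± 13.8 (n = 7) in Sox2-positive libraries of batches A and B against 4.31 ± 2.51 (n = 6) and 8.55 ± 2.24 (n = 4). Cdh19, a cadherin of Schwann cell precursors that is also on the glial list, had 37.6 ± 11.2 CPM in batch A Sox2-positive libraries and 1.17 ± 1.23 in batch B ones (batch B against A -5.05, edgeR adjusted p 8.848e-05). Cdh10, at 13.015 ± 5.32 and 0.479 ± 0.589 CPM, did likewise (-4.58, edgeR adjusted p 0.0004805). Cdh12 had 3.81 ± 3.87 and 7.45 ± 2.29 CPM in the Sox2-positive groups and averaged under 1 CPM in the Sox2-negative ones (log2 fold change 4.64, edgeR adjusted p 6.327e-06).

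Cdh5, the cadherin of endothelium, was at least 304-fold lower in Sox2-positive cells of batch A and at least 59.4-fold lower in batch B, taking 3 counts per library as the bound. Cdh15, M-cadherin of skeletal muscle, did not pass the filter in batch A. Its Sox2-negative mean there, 4.33 ± 4.23 CPM (SD, n = 6), was 7.22 times the bound, although 1 of these libraries had only 3 counts. In batch B Cdh15 was not called (-1.003, edgeR adjusted p 0.2065). Within Sox2-positive cells it was higher in batch B, at 3.41 ± 2.34 CPM (SD, n = 7) against 0.0373 ± 0.0914 (n = 6), with log2 fold change 5.89 and edgeR adjusted p 0.0002208. Cdh22 averaged at most 7.38 CPM in any group and was lower in Sox2-positive cells (-2.78, edgeR adjusted p 0.01718).

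Catenins tie cadherins to actin. On a list of catenins that also holds vinculin (Vcl), 1 of the 6 tested was called higher and 2 lower (median log2 fold change 0.00). Over all genes 57.8% were called (26.6% higher, 31.3% lower), with a median of -0.07. Jup (plakoglobin, shared with desmosomes) was higher (1.62, edgeR adjusted p 1.114e-08), Ctnnd1 (p120, which keeps cadherins at the membrane) lower (-0.74, 6.439e-05) and Ctnna2 lower (-1.02, 0.01388). Ctnnb1, which codes for beta-catenin, had 1013 ± 218 CPM (SD, n = 6), 876 ± 96.4 (n = 6), 956 ± 315 (n = 4) and 944 ± 184 (n = 7) in batch A negative and positive and batch B negative and positive libraries, and a log2 fold change of -0.12 (edgeR adjusted p 0.3913). Of 4 nectins and their partner afadin, 2 were called higher (Nectin4 at 3.98 and Nectin3 at 1.00) and 2 lower (Nectin1 at -1.13 and Afdn at -0.42). Their median was -0.07, as over all genes, and the same shares over all genes stand beside these counts.

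Where 26.6% of all genes were called higher and 31.3% lower, all 4 genes tied to Epcam were called higher (median log2 fold change 3.37). They were Cldn7, a claudin that binds it (at least 10.9-fold higher in batch A and 26.6-fold in batch B), and the protease genes and inhibitors Spint1 (3.81, edgeR adjusted p 1.102e-07), Spint2 (2.92, edgeR adjusted p 5.915e-18) and St14. Of 9 factors of the epithelial state, 7 were called higher and none lower, with a median of 3.98 (3.23 with bounds). Ovol1 and Ovol2, repressors of Zeb1 in epithelia, were at least 14.7-fold and 14.2-fold higher in batch B. In batch A, where neither passed the filter for a test, the bounds were 6.15-fold and 7.36-fold. Grhl3 rose by 4.76 over both batches (edgeR adjusted p 1.905e-07). These 3 averaged 3.94 to 5.30 CPM in batch A Sox2-positive libraries. In batch B ones Ovol1 and Ovol2 averaged 6.52 and 6.29 CPM, and Grhl3 averaged 18.8 ± 9.24 CPM (SD, n = 7) and was called higher than in batch A (2.24, edgeR adjusted p 0.01886).

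Of 8 other transcription factors of the transition 7 were tested, and 6 were called lower and 1 higher (median -6.98, or -4.94 with bounds). Over all genes 31.3% were called lower and 26.6% higher. Twist1 and Twist2, bHLH factors of mesenchyme, were at 0 in all 13 Sox2-positive libraries, against 24.9 ± 5.41 and 78.5 ± 17.7 CPM (SD, n = 6) in batch A Sox2-negative libraries and 46.9 ± 7.82 and 91.4 ± 14.3 (n = 4) in batch B ones. They were at least 41.6-fold and 131-fold lower in batch A and at least 64.3-fold and 125-fold lower in batch B, and Foxc2 was at least 26.5-fold and 35.6-fold lower. Tcf3 was called higher over both batches (0.70, edgeR adjusted p 0.001419) and in batch A, and not in batch B, with no called interaction (edgeR adjusted p 0.3095). Of 9 mesenchymal products 8 were called lower and none higher (median -3.75), among them Fap, at least 63.8-fold and 32.7-fold lower in batches A and B, Col1a1 (-5.53, edgeR adjusted p 1.665e-11) and Fn1 (-4.88, 9.424e-20). Twist1 and Prrx1 of the transition list and Col1a1 of the products also stand on the mesenchymal marker list.

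The genes with the profile most like each member were found by the root-mean-square difference of centred log2 CPM profiles over the 23 libraries, among 12958 genes. Vim had the closest neighbours, Cmtm7 at 0.276 and Col1a2 at 0.299, and Epcam was closest to Cdh6 at 0.362 and Isl1 at 0.403. Cdh3 and Snai2 shared the neighbour Zbtb20, at 0.405 and 0.511, beside Fam167a for Cdh3 and Xrcc5 for Snai2. Cdh1 was nearest to Sema4a at 0.457, and Cdh11 to Tpm2 at 0.3997 and the imprinted genes H19 and Plagl1. The nearest to Cdh2 were Col6a1 at 0.482, Calb1 and Ncam1, and those of Zeb2 were Ets1 and Postn, both at 0.790, and S100b at 0.809. Snai1 came nearest to Twist1 at 0.758, and the closest to Zeb1 was Lgr6, at 0.868. These values describe the 23 libraries, which differ mainly by population and batch.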

How the data were processed

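The deposited table holds 1 estimated count per gene and library, with fractions and no scaling to depth; FastQC, Trimmomatic, Salmon and the mm10 build are named in the submitters' processing notes, and the annotation is not given in the sources used here. Because the authors' estimated counts were made by Salmon, per the submitters' processing notes, reads shared by similar transcripts were divided between them. Per-sample columns left unused numbered 0. Identifiers were matched without version to GENCODE M21 (GRCm38), 54094 of 54347 (99.5%), and strand was not used. The counts were rounded to whole numbers.

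Fits used edgeR 4.0.16 in R 4.3.3: TMM scaling, filterByExpr with a minimum count of 10, the quasi-likelihood F test, two-sided, and Benjamini-Hochberg adjustment over all genes tested, called at 0.05. Populations were compared over both batches with batch as a covariate and within each batch, and the interaction and batch differences came from a model of 4 group means, which share libraries. Ratios were tested with scipy 1.17.1. The fits were also run on simulated data. There few genes changed between the populations and none between the batches, unlike in these libraries, so that run does not test the calls given here. Alternatives were DESeq2 1.42.0, RLE and total-count scaling, 2 other filters, a replicate block, leaving out each library, and leaving out batch B libraries 1 and 2.

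The 10 genes, lists and tests were chosen with earlier results of these data known. All 10 are named, with up to 3 called genes in each direction per list and the 3 nearest profiles (mean of at least 5 CPM). The 3-count floor reflects counting error alone: without molecular identifiers, reads of 1 molecule can be counted repeatedly. Some genes of the lists are not reported here. ATAC-seq libraries of the study were not analysed here.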

Additional observations from a re-analysis of the deposited data

Results flagged for a closer look

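For 16 quantities in each of the 4 groups (64 tests, 4 to 7 libraries a group), the highest or lowest library was compared with its nearest neighbour by Dixon's test, and 4 passed, about as many as 1 in 20 gives by chance. Cdh11 was 56.5 CPM in batch A Sox2-positive replicate 4, where the next library had 32.7 CPM (gap over range 0.671). Zeb1 was 18.3 CPM in batch A Sox2-positive replicate 2, next to 5.15 CPM (0.719). The log2 ratio of Zeb1 to Zeb2 was -8.34 in batch A Sox2-positive replicate 5, next to -3.84 (0.629), since Zeb1 was at 0 counts there. Vim was 99.4 CPM in batch B Sox2-positive replicate 7, next to 131.7 CPM (0.583).

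The difference between the populations itself differed between the batches for 3 of the 10 genes by edgeR's interaction test. These were Cdh2 at -1.96, Cdh3 at -1.09 and Zeb2 at -2.90 on the log2 scale, batch B minus batch A (Benjamini-Hochberg adjusted p 0.0002237, 0.008347 and 0.0002161).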

How the results depend on the processing

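The 10 population differences kept direction and call under every alternative, over both batches and in each. The labels number the libraries without calling them pairs, and same-numbered libraries of the populations did not deviate together (correlations -0.0212 to 0.0123 in batch A, 0.0031 to 0.0443 in batch B, own number the best match in 1 of 10). With the number as a replicate block, interaction calls over all genes were 565 instead of 1196, the Zeb1 to Zeb2 ratio in batch A stayed -2.89 (exact sign-flip adjusted p 0.075), the Vim interaction was 0.0812, and no other result changed its call or sign; a block could not be fitted between batches, and the sign-flip test was not run on 4 pairs in batch B.

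Without batch B libraries 1 and 2, all-gene calls were 481 for the interaction, 1157 between batches in Sox2-positive and 756 in Sox2-negative cells, with 0 of the 10 genes lower in the last. Fewer libraries then limit the exact tests: ratio differences no longer passing were, for batch B, Cdh1 to Cdh2 6.42, Cdh1 to Cdh11 4.93, Epcam to Vim 6.504 and Snai1 to Snai2 -10.66, and, between batches, Cdh1 to Cdh11 -0.46 and Epcam to Vim 0.46 in Sox2-positive and 0.75 in Sox2-negative cells. Signs turned for values that were not called: the interactions of Cdh1 (0.0578) and Snai2 (-0.0277), and the ratios Cdh1 to Cdh3 in batch B (0.010), Zeb1 to Zeb2 between batches in Sox2-negative cells (-0.011) and Snai1 to Snai2 in Sox2-positive cells (-0.023).

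The uncalled Vim interaction also turned to 0.0358 with DESeq2, 0.034 with RLE, 0.053 with total counts, 0.0073 without a filter and 0.015 at a mean of 10 counts. Snai2 between batches in Sox2-negative cells turned to -0.0156 with DESeq2, -0.016 with RLE and -0.12 with total counts. Without a filter, 3 genes were called higher and 0 lower between batches in Sox2-negative cells. With 2 counts added, the Zeb1 to Zeb2 ratio between batches in Sox2-positive cells was 2.22 (exact permutation adjusted p 0.041026). The causes were not tested.

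Leaving out 1 library gave 1 to 3 genes higher and 0 to 1 lower between batches in Sox2-negative cells, and 0 to 1 higher in the interaction. Ranges that crossed 0 were, between batches, Snai2 in Sox2-negative (-0.27 to 0.28), Epcam (-0.0415 to 0.009) and Snai1 (-0.81 to 0.62) in Sox2-positive cells, the interactions of Snai2 (-0.18 to 0.38) and Vim (-0.0808 to 0.0921), and the ratios Cdh1 to Cdh3 in batch B (-0.39 to 0.066) and Snai1 to Snai2 between Sox2-positive groups (-0.14 to 0.82). Calls changed for Cdh1 to Cdh3 in batch A (-1.12 to -0.31) and, between Sox2-positive groups, Cdh1 to Cdh11 (-0.68 to -0.45), Epcam to Vim (0.30 to 0.46) and Zeb1 to Zeb2 (1.64 to 3.07). Depth limits Snai1 and Zeb1 in Sox2-positive libraries, where counts reach 0, and Zeb2 in those of batch B, where 1 library was at 0.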
